A study of Homo sapiens with 36 samples.

Results

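HCT 116 is a human colorectal carcinoma line that grows as an epithelial sheet and is widely used as a model of colon cancer. Its response to JQ1 was measured by RNA sequencing in 3 libraries from cells given 0.5 µM JQ1 for 24 h and 3 libraries from cells given DMSO, the solvent, for the same time. No other agent or genetic change separates the groups, and the cells were collected in log-phase growth. Genes were taken where 3 or more of these 6 libraries had an RPKM of 1 or above, which gave 12554 of the 26468 genes in the authors' table. RPKM here is a read count scaled for transcript length and for a size factor of the library, its median ratio to the other libraries over genes. Levels can be set beside each other between genes, and between samples relative to the typical gene. The other 30 libraries of the study hold 5 further colon cancer lines (HCT-15, HT-29, SW480, COLO320 and COLO205) under the same treatments and serve here only as the comparison for HCT 116.

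BET proteins, among them BRD2 and BRD3, bind acetylated lysines on histones through paired bromodomains and bring the kinase complex P-TEFb to promoters and enhancers, where it releases paused RNA polymerase II. JQ1 occupies the acetyl-lysine pocket of these bromodomains and displaces the proteins from chromatin. In colon cancer cells the compound is best known for lowering MYC, but genes with strong tissue-specific enhancers also depend on BET proteins.

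Each gene was tested on log2(RPKM + 0.5) with limma, and a gene was called at a Benjamini-Hochberg adjusted p under 0.05. A log2 change is JQ1 minus DMSO, so a positive value means higher with JQ1. Its error is a standard error (SE), drawn from the spread within the groups of all 6 lines. RPKM means are given ± SD with n = 3 for each group. Adding 0.5 makes the change of genes with low values look smaller than the ratio of their RPKM. The JQ1 libraries held 18.8 to 22.8 M reads in genes, against 23.0 to 26.3 M in the DMSO libraries, so the groups differ in depth as well as in treatment. The 10 most abundant genes took 4.45 to 4.52% of the reads with JQ1, against 3.82 to 3.93% with DMSO. The part of depth in the results was not tested beyond a repeat on recovered reads, which called 4683 genes higher and 4895 lower. Whether the replicates were separate cultures is not stated in the labels, and the spread behind the p-values may therefore be technical.

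Of 11 markers of colon epithelium, 6 passed the level filter in HCT 116. KRT19, KRT18 and KRT8, keratins of simple epithelia, were at 515, 471 and 414 RPKM with JQ1, against 437, 386 and 324 RPKM with DMSO. The intestinal transcription factor CDX2 was at 8.09 ± 0.398 RPKM with JQ1, against 8.69 ± 0.470 RPKM with DMSO. CDX1, VIL1, CDH17, GPA33 and LGALS4, markers of mature colonocytes, stayed below the filter. A single fibroblast marker of 9 (COL1A1, at most 3.38 RPKM) and a single leukocyte marker of 9 (CD68, at most 4.09 RPKM) passed it. None of 6 endothelial markers passed it, and their summed level was at most 0.0375 RPKM with JQ1 and 0.0764 RPKM with DMSO.

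JQ1 moved most of the expressed transcriptome of HCT 116 by a little and a small part of it by a lot. limma called 4696 genes higher, which is 37.4% of those tested, and 4907 lower, which is 39.1%, together 76.5%. The median size of a called change was 0.34 on the log2 scale, and 68.7% of the called genes changed by less than 0.5. At least a 2-fold change was reached by 215 genes that rose (1.71%) and 466 genes that fell (3.71%). With a filter at RPKM 5 in place of 1, 153 rose and 251 fell by that much. Genes that passed the filter only through the libraries of a single group had to be higher in that group. A 4-fold change was reached by 13 that rose and 55 that fell. The groups did not overlap for 4728 genes with JQ1 higher (37.7% of those tested) and 4946 with JQ1 lower (39.4%). The median change over all tested genes was close to 0, at -0.0043. The size factors in the RPKM values place the typical gene near 0. This median and the balance of rises and falls are therefore largely set by the scaling. A shift of most genes in a single direction could not be seen.

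**Figure D1:**
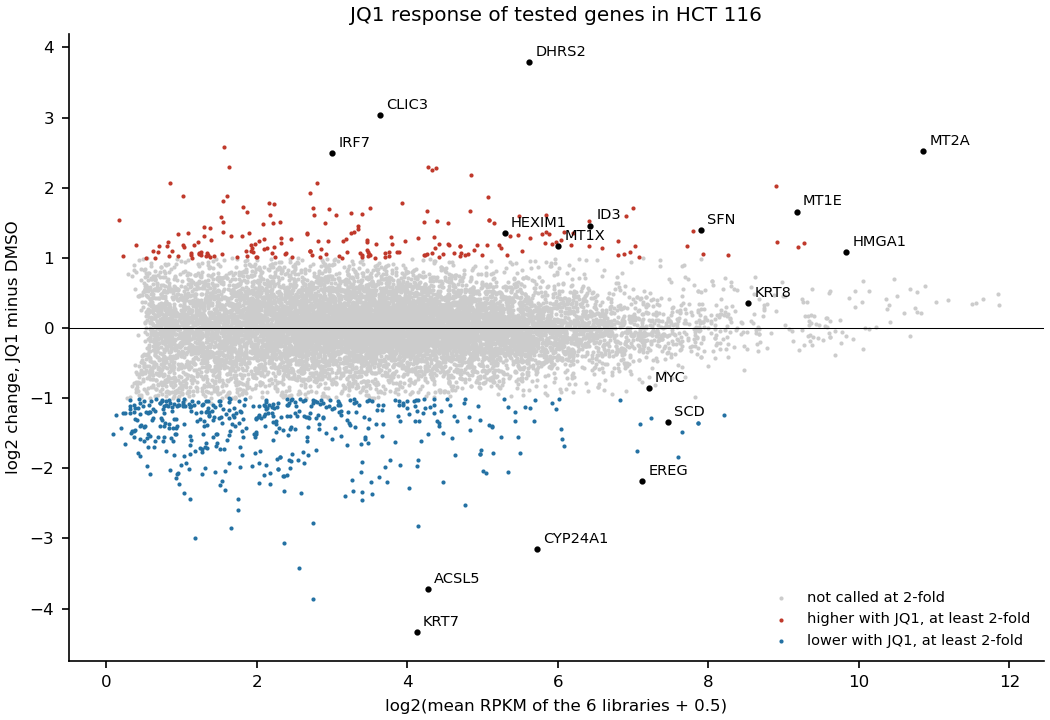
Log2 change of each tested gene in HCT 116 (vertical axis, JQ1 minus DMSO) against its mean level over the 6 libraries (horizontal axis, log2 of RPKM + 0.5). Red points mark the 215 genes higher by at least 2-fold and blue points the 466 lower by at least 2-fold. Black points are named genes, among which MT2A is the most abundant and KRT7 fell furthest.

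Among the genes above 5 RPKM in either group, DHRS2, a short-chain dehydrogenase that reduces dicarbonyl compounds, rose furthest. It was at 93.2, 89.3 and 91.2 RPKM with JQ1, against 5.42, 6.76 and 6.30 RPKM with DMSO, a log2 change of 3.79 ± 0.13 (SE; limma adjusted p = 9.4e-21). The JQ1 libraries stood far above the DMSO libraries, with little spread in either group. CLIC3, a chloride intracellular channel protein, followed at 22.4, 20.7 and 21.9 RPKM with JQ1, against 2.33, 1.98 and 2.31 RPKM with DMSO (log2 change 3.04 ± 0.11). IRF7, the interferon regulatory factor that drives type I interferon genes, was at 12.5, 13.5 and 13.2 RPKM with JQ1, against 1.70, 1.96 and 2.06 RPKM with DMSO (log2 change 2.50 ± 0.066). None of these 3 genes had a JQ1 library near its highest DMSO library.

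Other large rises came from unrelated kinds of gene. The alpha-tubulin TUBA1A averaged 34.0 ± 2.51 RPKM with JQ1 and 6.57 ± 0.446 RPKM with DMSO. VGF, a secreted neuropeptide precursor, averaged 46.7 ± 2.43 RPKM with JQ1 and 9.85 ± 0.258 RPKM with DMSO. ARRDC4, an arrestin-domain protein that responds to glucose and lowers its uptake, averaged 10.7 ± 0.431 RPKM with JQ1 and 2.17 ± 0.0490 RPKM with DMSO. PEG10, an imprinted gene derived from a retrotransposon, was at 22.7 to 23.8 RPKM with JQ1, against 6.31 to 6.44 RPKM with DMSO. TPPP, which promotes tubulin polymerization, the Wnt ligand WNT9A and SLFN5, a Schlafen family member, rose by 1.78, 1.77 and 1.71 on the log2 scale. RNU7-1, the small nuclear RNA of histone mRNA 3′ end processing, was at 58.7, 51.5 and 46.0 RPKM with JQ1, against 13.8, 16.1 and 12.1 RPKM with DMSO. Its transcript is 63 bases long, and its SE was the widest among the largest rises (log2 change 1.86 ± 0.44).

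KRT7, a keratin of simple epithelium that is usually absent from colon, fell furthest. It was at 1.14, 1.08 and 1.21 RPKM with JQ1, against 34.2, 30.7 and 33.3 RPKM with DMSO, a log2 change of -4.34 ± 0.12 (limma adjusted p = 9.9e-23). ACSL5, which activates long-chain fatty acids with coenzyme A, was at 2.34, 2.12 and 2.21 RPKM with JQ1, against 35.3, 35.5 and 35.2 RPKM with DMSO (log2 change -3.72 ± 0.042). CYP24A1, the mitochondrial enzyme that inactivates vitamin D, was at 10.1, 10.1 and 10.3 RPKM with JQ1, against 96.6, 90.9 and 94.5 RPKM with DMSO (log2 change -3.15 ± 0.051). All JQ1 libraries of these genes were below all DMSO libraries, and for KRT7 and ACSL5 little transcript was left.

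Several further genes were below 1 RPKM with JQ1. ADGRF1, ARL14EPL, ZBED2, SCG2 and TFPI were so in every JQ1 library. They passed the level filter only through the DMSO libraries and had to be lower with JQ1. The adhesion receptor ADGRF1 averaged 0.368 ± 0.082 RPKM with JQ1 and 12.1 ± 0.659 RPKM with DMSO. ARL14EPL averaged 0.500 ± 0.066 RPKM with JQ1 and 10.2 ± 0.282 RPKM with DMSO, and the zinc finger protein ZBED2 averaged 0.595 ± 0.068 and 8.68 ± 0.306 RPKM. SCG2, a granin of secretory vesicles, averaged 0.458 ± 0.070 RPKM with JQ1 and 5.26 ± 0.270 RPKM with DMSO. TFPI, the tissue factor pathway inhibitor, averaged 0.549 ± 0.047 RPKM with JQ1 and 5.16 ± 0.067 RPKM with DMSO. A larger remainder was left of other genes. The glutamine transporter SLC38A5 averaged 3.88 ± 0.317 RPKM with JQ1 and 30.3 ± 0.921 RPKM with DMSO. The heparan sulfate sulfotransferase HS3ST1 averaged 7.58 ± 0.522 RPKM with JQ1 and 45.7 ± 1.17 RPKM with DMSO. The protocadherin PCDH7, the serine protease KLK6, the homeobox gene MKX and the epithelial ETS factor EHF fell, with log2 changes of -2.78, -2.46, -2.39 and -2.36.

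**Figure D2:**
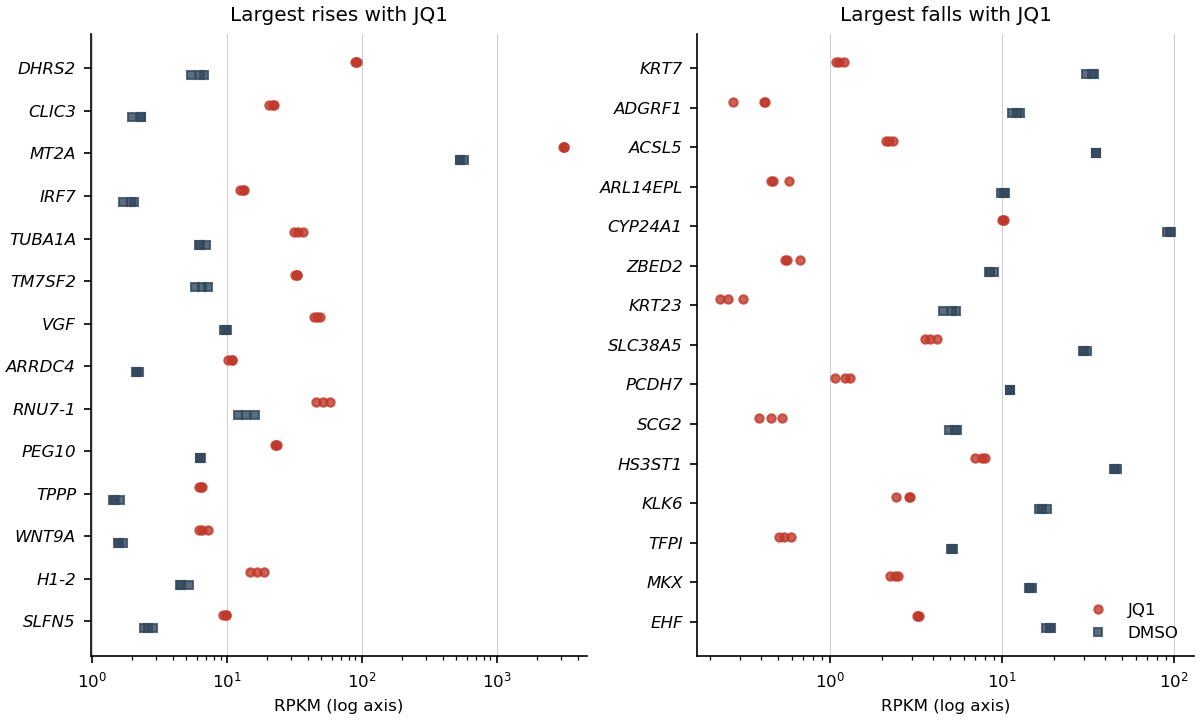
RPKM (log axis) of 14 genes with the largest rises and 15 with the largest falls in HCT 116, 1 point for each library (red circles JQ1, dark squares DMSO). The groups are apart for every gene shown: DHRS2 sits near 91.2 RPKM with JQ1 and 6.16 RPKM with DMSO, and KRT7 near 1.14 RPKM with JQ1 and 32.7 RPKM with DMSO.

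The most abundant transcripts that changed by at least 2-fold mostly rose. HMGA1, an architectural chromatin protein, was at 1233 to 1248 RPKM with JQ1, against 574 to 610 RPKM with DMSO. The galectin LGALS1 averaged 864 ± 12.5 RPKM with JQ1 and 374 ± 12.1 RPKM with DMSO, and the beta-tubulin TUBB4B was at 792 to 812 RPKM with JQ1, against 358 to 368 RPKM with DMSO. Creatine kinase CKB averaged 674 ± 6.27 RPKM with JQ1 and 289 ± 12.7 RPKM with DMSO. The annexin partner S100A10 averaged 413 ± 9.39 RPKM with JQ1 and 201 ± 2.78 RPKM with DMSO. SFN, 14-3-3 sigma, which holds cells in G2 after DNA damage, averaged 346 ± 6.90 RPKM with JQ1 and 132 ± 4.42 RPKM with DMSO. Among the 10 most abundant, only the scaffold protein AKAP12 fell, to 175 ± 7.01 RPKM with JQ1, against 415 ± 5.33 RPKM with DMSO.

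Of all tested genes the metallothionein MT2A had the largest difference in mean RPKM between the groups. Metallothioneins, small cysteine-rich proteins, bind zinc and copper, and their genes lie in a cluster on chromosome 16 whose promoters carry metal response elements, the sites of the zinc sensor MTF1. The RefSeq promoters (GRCh38.p14, plus strand) of the most abundant member and of MT1X are shown because both genes moved together, as the 250 bases before the annotated start. Capitals mark the metal response element core on either strand (TGCACNC or TGCGCNC), and sites that overlap run together. The windows are chr16:56608334-56608583 for MT2A, with 7 cores, and chr16:56682220-56682469 for MT1X, with 4.
MT2A: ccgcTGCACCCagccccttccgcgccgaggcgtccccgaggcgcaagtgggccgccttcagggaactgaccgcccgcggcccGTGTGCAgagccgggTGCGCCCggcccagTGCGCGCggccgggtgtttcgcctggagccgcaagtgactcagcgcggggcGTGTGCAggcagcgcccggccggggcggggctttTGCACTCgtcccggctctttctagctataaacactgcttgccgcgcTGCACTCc
MT1X: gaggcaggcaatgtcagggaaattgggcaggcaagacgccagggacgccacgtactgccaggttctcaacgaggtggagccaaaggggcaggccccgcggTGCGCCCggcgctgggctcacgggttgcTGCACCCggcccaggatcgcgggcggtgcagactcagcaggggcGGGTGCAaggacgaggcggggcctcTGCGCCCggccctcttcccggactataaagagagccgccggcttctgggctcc

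The core is short and common: 39.9% of the 9516 promoters of tested genes in the same 300-base window hold it at least once. Promoters were at hand for 3 tested metallothioneins (MT2A, MT1X and MT1B), and all 3 hold it and a TATA box (TATAAA), which is in 4.87% of tested promoters. A match is a match of letters and says nothing about binding in these cells.

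MT2A was at 3183, 3125 and 3157 RPKM with JQ1, against 536, 540 and 577 RPKM with DMSO, a log2 change of 2.52 ± 0.049 (limma adjusted p = 4.4e-26). MT1E was at 887, 871 and 875 RPKM with JQ1, against 279, 274 and 280 RPKM with DMSO (log2 change 1.66 ± 0.13). MT1X was at 94.0, 82.4 and 88.7 RPKM with JQ1, against 33.2, 40.9 and 43.5 RPKM with DMSO (log2 change 1.17 ± 0.089). In each of these genes the groups were far apart, with no JQ1 library below any DMSO library.

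The pattern did not extend to every member. MT1B was much scarcer and rose, at 6.32 ± 0.694 RPKM with JQ1 and 1.74 ± 0.222 RPKM with DMSO. MT1F was at 2.24, 2.71 and 2.29 RPKM with JQ1, against 2.84, 3.96 and 3.90 RPKM with DMSO, and was not called (log2 change -0.47 ± 0.24, limma adjusted p = 0.074). MT1A, MT1G, MT1H, MT1M, MT3 and MT4 were below the filter. Metallothionein coding sequences are nearly identical, and the handling of reads with several matches was not stated, so the split between members is uncertain. Around them, MTF1 averaged 6.95 ± 0.026 RPKM with JQ1 and 5.99 ± 0.352 RPKM with DMSO. SLC30A1, the zinc exporter that MTF1 also induces, fell to 5.14 ± 0.445 RPKM with JQ1, against 6.74 ± 0.363 RPKM with DMSO. The zinc importer SLC39A10 fell to 10.9 ± 0.331 RPKM with JQ1, against 16.9 ± 0.272 RPKM with DMSO.

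Genes of cholesterol synthesis fell for the most part. Cholesterol is made from acetyl-CoA through mevalonate and squalene, and cells tune the pathway through SREBF2, the transcription factor that is held in the endoplasmic reticulum by SCAP and the INSIG proteins when sterols are plentiful. Of 20 cholesterol synthesis genes, all tested, 16 fell (80%) and 1 rose (5%), beside 39.1% and 37.4% of all tested genes. Their median log2 change was -0.37 beside -0.0043 over all genes. The squalene synthase FDFT1 fell to 37.0 ± 1.83 RPKM with JQ1, against 62.7 ± 1.80 RPKM with DMSO, and the squalene epoxidase SQLE fell to 23.5 ± 0.823 RPKM, against 37.9 ± 0.281 RPKM. HMGCS1, the synthase that makes HMG-CoA, fell by 0.75 on the log2 scale.

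The exception was TM7SF2, a sterol C14 reductase, at 33.3, 33.0 and 32.0 RPKM with JQ1, against 5.83, 7.21 and 6.53 RPKM with DMSO. Its rise (log2 change 2.25 ± 0.059) was among the 15 largest, while 16 other genes of the pathway fell. MVD, LSS and HSD17B7 were not called.

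The control genes of the pathway followed the enzymes in part. SREBF2 was at 28.4, 28.7 and 28.4 RPKM with JQ1, against 46.7, 48.1 and 48.0 RPKM with DMSO (log2 change -0.73 ± 0.024). Its own promoter holds the sterol response element (searched on either strand), which is in 1.09% of tested promoters, and the site is shown in capitals within 49 bases of the plus strand at chr22:41832952-41833000 (RefSeq, GRCh38.p14).
SREBF2: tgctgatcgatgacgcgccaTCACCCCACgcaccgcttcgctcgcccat

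None of the 15 cholesterol synthesis genes with a promoter at hand holds this exact element in the 300-base window, which says only that these letters are not there. INSIG1 fell to 10.7 ± 0.546 RPKM with JQ1, against 22.4 ± 0.0659 RPKM with DMSO, and the sterol carrier STARD4 fell to 5.55 ± 0.359 RPKM, against 13.4 ± 0.335 RPKM.

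Fatty acid genes as a group were close to all tested genes: of 23, 9 rose (39.1%) and 11 fell (47.8%), beside 37.4% and 39.1% overall. Single members changed more. Besides ACSL5, the desaturase SCD fell to 99.0 ± 0.874 RPKM with JQ1, against 252 ± 3.29 RPKM with DMSO, and the fatty acid synthase FASN fell to 97.5 ± 5.92 RPKM, against 149 ± 5.19 RPKM. DGAT1, which makes triglyceride, rose to 32.1 ± 0.358 RPKM with JQ1, against 13.6 ± 0.223 RPKM with DMSO.

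**Figure D3:**
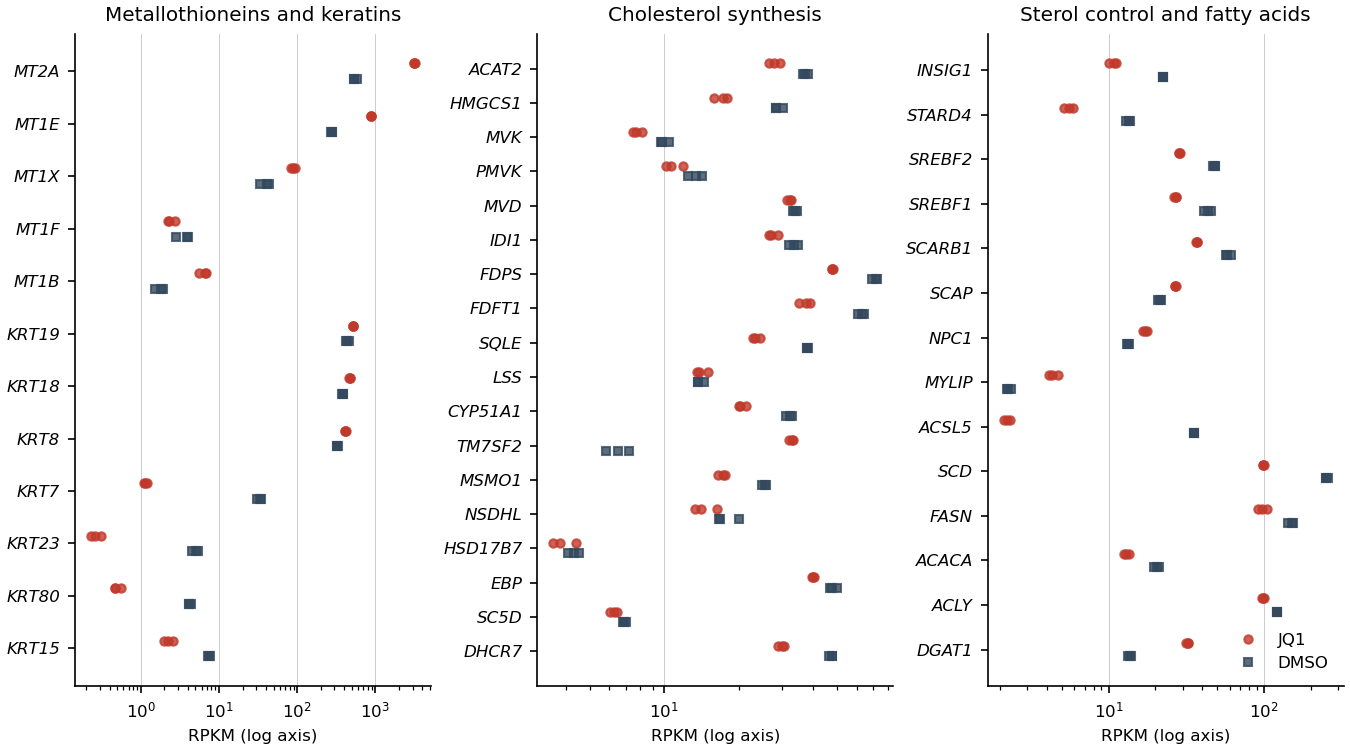
RPKM (log axis) in each HCT 116 library (red circles JQ1, dark squares DMSO) for metallothioneins and keratins (left), 18 of the cholesterol synthesis genes (middle), and sterol control and fatty acid genes (right). MT2A, MT1E, MT1X and MT1B are higher with JQ1 and MT1F is not called. KRT7, KRT23, KRT80 and KRT15 are lower, and TM7SF2 alone among the synthesis genes shown rose.

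Keratins form the intermediate filaments of epithelial cells, in pairs of a type I and a type II chain. The abundant keratins of simple epithelium, KRT8, KRT18 and KRT19, rose by 0.35, 0.29 and 0.24 on the log2 scale, although KRT19 turned to -0.044 with quantile scaling (limma adjusted p = 0.199). Several scarcer keratins fell. Besides KRT7, KRT23 was at 0.230, 0.256 and 0.313 RPKM with JQ1, against 5.44, 4.58 and 5.12 RPKM with DMSO. KRT80 averaged 0.495 ± 0.057 RPKM with JQ1 and 4.21 ± 0.144 RPKM with DMSO, and KRT15 averaged 2.27 ± 0.305 and 7.42 ± 0.244 RPKM. KRT23 and KRT80 passed the level filter only through the DMSO libraries and had to be lower with JQ1. KRT10 fell by 0.31 and KRT5, at 1.47 RPKM with JQ1 and 1.81 RPKM with DMSO, was not called. The other 12 listed keratins were below the filter. Of 31 epithelial junction and regulator genes, 14 rose (45.2%) and 11 fell (35.5%), beside 37.4% and 39.1% of all tested genes, with log2 changes from -0.98 to 0.78. Among the regulators, ELF3, GRHL2 and the splicing factor ESRP1 fell by 0.98, 0.77 and 0.69, whereas the adhesion molecule CDH1 was at 15.7 RPKM with JQ1 and 14.6 RPKM with DMSO. EPCAM, the epithelial adhesion molecule, fell to 134 ± 1.48 RPKM with JQ1, against 186 ± 3.42 RPKM with DMSO.

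The targets of the compound and the elongation machinery rose more often than they fell. Of 28 genes for BET proteins, P-TEFb and elongation factors, 15 rose (53.6%) and 6 fell (21.4%), beside 37.4% and 39.1% of all tested genes, with a median log2 change of 0.13. BRD2 rose to 102 ± 0.478 RPKM with JQ1, against 61.7 ± 0.527 RPKM with DMSO. BRD3 rose by 0.13, but its groups overlapped, and without DMSO replicate 1 the change was 0.056 and not called (limma adjusted p = 0.248). HEXIM1, which holds P-TEFb inactive on the 7SK RNA, was at 56.7, 54.7 and 56.2 RPKM with JQ1, against 21.4, 21.4 and 21.9 RPKM with DMSO. Its paralog HEXIM2 went the other way, at 2.55 RPKM with JQ1 and 4.69 RPKM with DMSO. POLR2A, the largest subunit of RNA polymerase II, rose to 110 ± 6.32 RPKM with JQ1, against 55.4 ± 2.07 RPKM with DMSO.

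Genes used as readouts of BET inhibition mostly fell here, and some rose. They were listed from published work on these cell lines and others, so their direction is not independent evidence. Of 13 tested, 10 fell (76.9%) and 3 rose (23.1%), beside 39.1% and 37.4% of all tested genes. All 3 that rose did so by at least 2-fold. TRIP6, an adhesion adaptor, averaged 12.3 ± 0.556 RPKM with JQ1 and 52.8 ± 0.915 RPKM with DMSO, GTF3C6, a subunit of a polymerase III factor, averaged 4.74 ± 0.528 and 20.2 ± 0.920 RPKM, and ZMYND8, a reader of acetylated histones, averaged 2.29 ± 0.090 and 8.99 ± 0.265 RPKM. MYC fell less than these, to 105 ± 1.62 RPKM with JQ1, against 190 ± 5.21 RPKM with DMSO (log2 change -0.85 ± 0.024).

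Genes that MYC is known to activate fell by small amounts and widely. Of 38 growth and nucleotide synthesis targets, 31 fell (81.6%) and 6 rose (15.8%), beside 39.1% and 37.4% of all tested genes. Their median log2 change was -0.26. The arginine methyltransferase PRMT5 fell to 73.7 ± 0.462 RPKM with JQ1, against 123 ± 2.16 RPKM with DMSO, and the purine enzyme PAICS fell to 135 ± 3.14 RPKM, against 208 ± 2.42 RPKM. Among the exceptions, RRM2, the small subunit of ribonucleotide reductase, rose to 256 ± 5.91 RPKM with JQ1, against 154 ± 2.57 RPKM with DMSO. ODC1, the first enzyme of polyamine synthesis, rose to 542 ± 11.2 RPKM, against 391 ± 2.08 RPKM with DMSO.

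Of 44 ribosome biogenesis genes, 37 fell (84.1%) and 1 rose (TAF1D, 2.27%), beside 39.1% and 37.4% of all tested genes. Their median log2 change was -0.36. The range ran only from -0.82 to 0.25, so no member reached a 2-fold change. GAR1, a protein of the small nucleolar RNAs that guide pseudouridylation, was at 21.3, 20.3 and 19.1 RPKM with JQ1, against 36.8, 35.5 and 36.1 RPKM with DMSO. The rRNA 2′-O-methyltransferase FBL was at 199, 202 and 203 RPKM with JQ1, against 254, 260 and 265 RPKM with DMSO. The ribosomal proteins themselves were close to all tested genes: of 32, 12 rose (37.5%) and 12 fell (37.5%), beside 37.4% and 39.1%. With quantile scaling 7 rose and 19 fell, so their balance depends on the scaling.

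The E-box CACGTG, the site that MYC and MAX bind, was in 12 of 35 ribosome biogenesis promoters (34.3%), against 10.5% of all tested promoters. The E-box is its own reverse complement, and no other motif was searched within it. All 12 genes with it were among the 37 that fell, but 84.1% of the whole group fell, so this does not set them apart. The part of the E-box in the fall was not tested. The sites of 4 of them are shown in capitals with 12 bases on either side, on the plus strand of chromosomes 11, 6, 12 and 16 (NAT10 chr11:34105602-34105631, BYSL chr6:41921515-41921544, UTP20 chr12:101280083-101280112, UTP4 chr16:69132621-69132650; RefSeq, GRCh38.p14).
NAT10: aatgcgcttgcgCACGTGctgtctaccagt
BYSL: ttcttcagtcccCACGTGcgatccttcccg
UTP20: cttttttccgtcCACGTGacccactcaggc
UTP4: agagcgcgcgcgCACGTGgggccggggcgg

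These 4 genes, which acetylate rRNA (NAT10) or assemble the small ribosomal subunit, fell by 0.57, 0.54, 0.47 and 0.47 on the log2 scale. NAT10 averaged 35.9 ± 0.266 RPKM with JQ1 and 53.6 ± 0.360 RPKM with DMSO, without overlap.

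Nearly all tested histone genes rose. Of 34 listed, 16 passed the filter and 18 were below it. Of the 16, 15 rose (93.75%) and 1 (MACROH2A1) fell (6.25%), beside 37.4% and 39.1% of all tested genes. H2AX, the variant phosphorylated at DNA breaks, rose to 290 ± 3.78 RPKM with JQ1, against 128 ± 7.56 RPKM with DMSO, and H1-10 rose to 156 ± 1.71 RPKM, against 66.0 ± 5.38 RPKM. Replication-dependent histone genes rose from low levels, for example H1-2 at 19.0, 16.7 and 14.9 RPKM with JQ1, against 4.56, 4.54 and 5.24 RPKM with DMSO, and H2BC5 at 4.90 ± 0.551 RPKM with JQ1, against 1.15 ± 0.311 RPKM with DMSO. With a filter at RPKM 5 in place of 1, 8 histones were left, of which 7 rose and 1 fell. Members that passed only through the JQ1 libraries had to be higher there, and near-identical histone copies can share reads, so the count is a description.

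Cell cycle genes showed no single direction. Of 16 tested CDK inhibitors, pocket proteins and anti-proliferative genes, 13 rose (81.25%) and 3 fell (18.75%), beside 37.4% and 39.1% of all tested genes. CDKN2D, which binds CDK4 and CDK6, was at 14.4 to 15.4 RPKM with JQ1, against 5.89 to 6.26 RPKM with DMSO, and CDKN1A, the CDK inhibitor p21, rose to 88.0 ± 0.324 RPKM, against 57.5 ± 2.18 RPKM. Of 44 G1 and S phase genes 13 rose (29.55%) and 24 fell (54.55%). Among those that fell were the E2F factors E2F2 (4.56 ± 0.132 RPKM with JQ1, 10.7 ± 0.0973 RPKM with DMSO) and E2F8 (5.75 ± 0.259 and 12.2 ± 0.725 RPKM). The replicative helicase subunit MCM5 also fell (58.8 ± 1.04 and 110 ± 2.94 RPKM). Cyclin D1, CCND1, was higher, at 353 ± 7.92 RPKM with JQ1 and 284 ± 4.65 RPKM with DMSO. Of 38 G2 and mitosis genes 12 rose (31.6%) and 18 fell (47.4%). The proliferation antigen MKI67 was at 45.4, 51.3 and 46.6 RPKM with JQ1, against 48.6, 50.1 and 46.5 RPKM with DMSO, with overlapping groups and no call (limma adjusted p = 0.71).

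ATF4 directs amino acid supply and the integrated stress response. Of 24 tested genes of this response, 19 fell (79.2%) and 4 rose (16.7%), beside 39.1% and 37.4% of all tested genes (median log2 change -0.37). DMSO replicate 3 stood somewhat apart from the other DMSO libraries (chi-square per gene 3.10 and 3.20, against 1.36 between replicates 1 and 2) and was the highest of them for DDIT4, GDF15, TRIB3 and ASNS. Without it 18 fell and 4 rose. DDIT4, which restrains mTORC1, was at 18.1, 20.3 and 20.6 RPKM with JQ1, against 54.9, 69.4 and 85.7 RPKM with DMSO (log2 change -1.78 ± 0.082). The cystine transporter SLC7A11 fell to 4.73 ± 0.244 RPKM with JQ1, against 13.2 ± 0.630 RPKM with DMSO, and the pseudokinase TRIB3 fell to 11.5 ± 0.256 RPKM, against 30.3 ± 3.42 RPKM. GDF15, a stress cytokine that ATF4 is known to induce, was at 13.8, 13.2 and 14.8 RPKM with JQ1, against 39.6, 47.7 and 57.4 RPKM with DMSO. The DMSO libraries of GDF15 were spread widely, yet all lay above the JQ1 libraries. ATF4 itself fell to 94.5 ± 0.283 RPKM with JQ1, against 123 ± 4.05 RPKM with DMSO. Against this, ASNS, the asparagine synthetase and a textbook ATF4 target, was at 187, 172 and 182 RPKM with JQ1, against 73.7, 81.3 and 85.2 RPKM with DMSO (log2 change 1.17 ± 0.048).

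**Figure D4:**
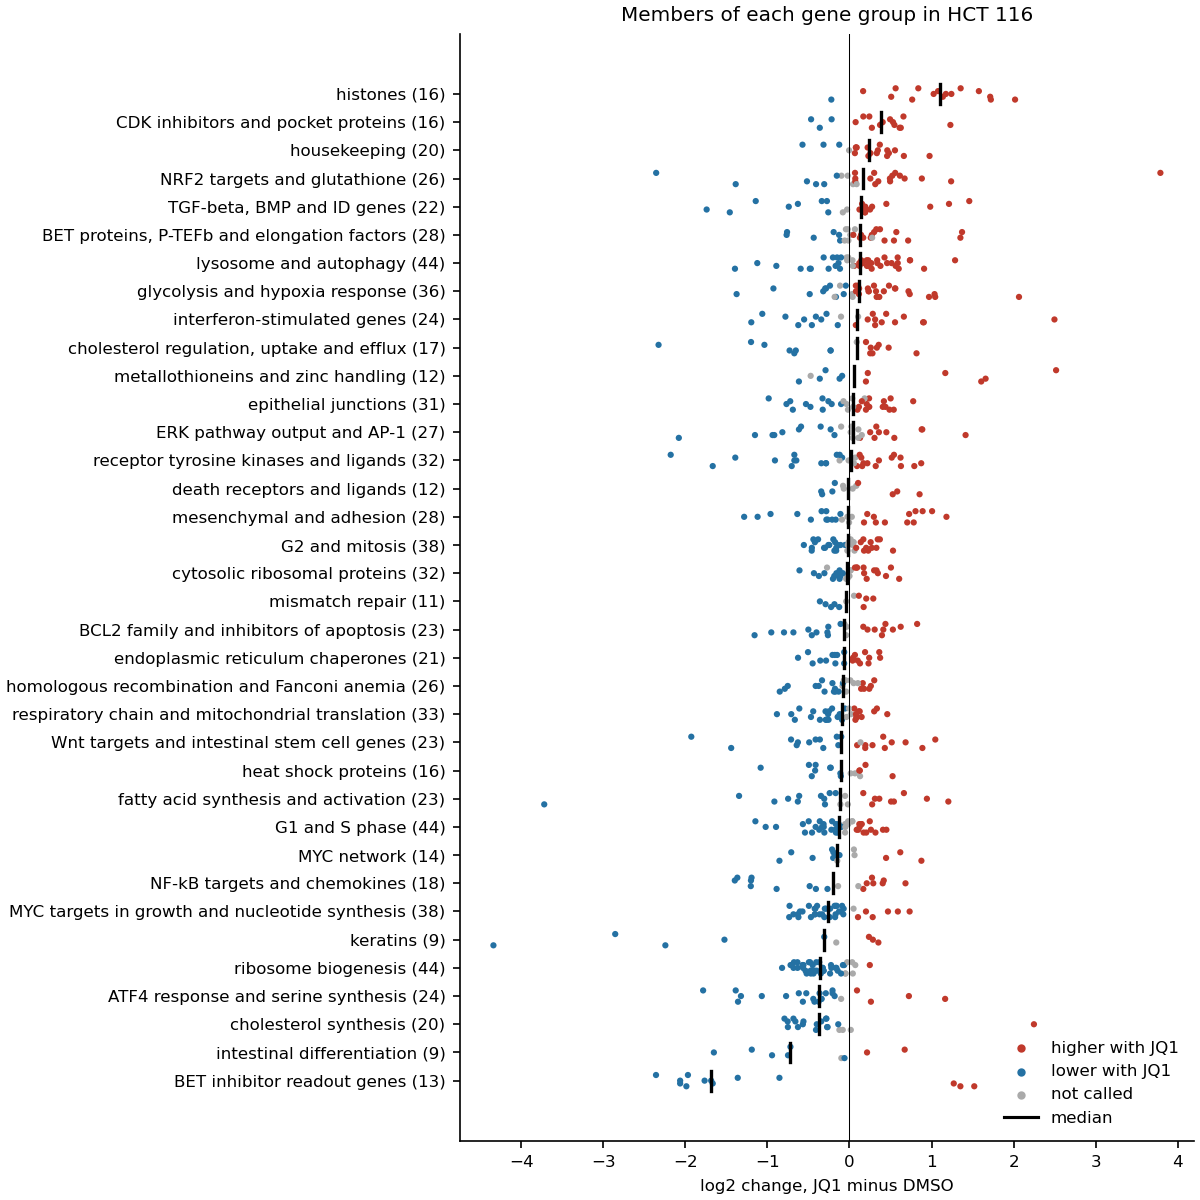
Log2 change (JQ1 minus DMSO) in HCT 116 of the tested members of gene groups with 9 or more of them, ordered by median (black bar), with the number tested in brackets. Red points are genes called higher, blue points lower and grey points not called. Histones have the highest median at 1.11 and the BET inhibitor readout genes the lowest at -1.685. Ribosome biogenesis and cholesterol synthesis genes have medians of -0.36 and -0.37. The latter reach from -0.79 to 2.25, the value of TM7SF2.

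Growth factor and signalling genes held large single changes inside mixed groups. EREG, an EGF receptor ligand, fell to 49.8 ± 0.317 RPKM with JQ1, against 227 ± 3.95 RPKM with DMSO (log2 change -2.18 ± 0.046). The related ligand AREG fell to 1.89 ± 0.494 RPKM with JQ1, against 5.70 ± 0.561 RPKM with DMSO, and the receptor kinase TYRO3 fell to 3.90 ± 0.0642 RPKM, against 13.5 ± 0.220 RPKM. Among AP-1 and ERK output genes, JUN rose to 14.2 ± 0.488 RPKM with JQ1, against 5.03 ± 0.399 RPKM with DMSO, while BATF3 fell to 0.427 ± 0.108 RPKM, against 3.40 ± 0.235 RPKM. BATF3 passed the level filter only through the DMSO libraries and had to be lower with JQ1. The ID proteins, which block basic helix-loop-helix factors and respond to BMP signals, rose together. ID1, ID2 and ID3 averaged 317 ± 0.744, 79.0 ± 2.29 and 126 ± 3.16 RPKM with JQ1, against 160 ± 13.3, 33.8 ± 1.05 and 45.5 ± 0.988 RPKM with DMSO.

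Wnt signalling is constitutively active in HCT 116 through CTNNB1. Of 23 tested Wnt targets and stem cell genes 10 rose (43.5%) and 12 fell (52.2%), beside 37.4% and 39.1% of all tested genes. The feedback gene AXIN2 rose to 7.29 ± 0.216 RPKM with JQ1, against 4.35 ± 0.193 RPKM with DMSO, whereas NOTUM, which inactivates Wnt ligands, fell to 0.796 ± 0.177 RPKM, against 4.40 ± 0.254 RPKM. The JQ1 mean of NOTUM is under the level filter, so its pass rested mostly on the DMSO libraries. PROM1, the stem cell antigen CD133, fell to 2.56 ± 0.180 RPKM with JQ1, against 7.79 ± 0.172 RPKM with DMSO. Of 46 genes of intestinal differentiation, 36 were below the filter and 1 was not matched. Among the 9 tested, the nuclear receptors HNF4A and HNF4G fell by 0.94 and 1.65, and GATA6 rose by 0.67 on the log2 scale.

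Apoptosis genes as a group were close to all tested genes: of 23, 9 rose (39.1%) and 11 fell (47.8%), beside 37.4% and 39.1% overall. BCL2L11 (BIM), a killer protein of the BCL2 family, rose to 7.49 ± 0.140 RPKM with JQ1, against 4.01 ± 0.0222 RPKM with DMSO. The survival protein MCL1 rose to 87.3 ± 0.622 RPKM, against 60.3 ± 0.650 RPKM with DMSO, and its relative BCL2L1 (BCL-XL) fell to 110 ± 1.04 RPKM, against 132 ± 2.51 RPKM. CFLAR, the inhibitor of caspase 8, fell to 1.01 ± 0.0521 RPKM with JQ1, against 2.42 ± 0.0818 RPKM with DMSO.

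Some of the large changes lay side by side. Runs of at least 3 neighbouring tested genes that all changed by 2-fold in 1 direction numbered 8, of which only the metallothionein run rose. The kallikrein proteases KLK6, KLK7 and KLK8 on chromosome 19 averaged 2.75, 1.69 and 2.69 RPKM with JQ1, against 17.3, 8.21 and 10.1 RPKM with DMSO. HOXC13, HOXC10 and HOXC9 on chromosome 12, posterior homeobox genes, averaged 0.395, 0.198 and 1.76 RPKM with JQ1, against 1.68, 1.41 and 4.32 RPKM with DMSO. Also on chromosome 12, GLIPR1, the ribosome assembly factor KRR1 and PHLDA1 averaged 8.03, 24.0 and 38.7 RPKM with JQ1, against 20.8, 61.2 and 86.5 RPKM with DMSO. MKX, ODAD2 and MPP7 on chromosome 10 averaged 2.38, 1.65 and 11.3 RPKM with JQ1, against 14.6, 7.23 and 30.6 RPKM with DMSO. The other falling runs were KRT23, KRTAP2-3 and KRT15 on chromosome 17, SEMA3B, LSMEM2 and IFRD2 on chromosome 3, and a run on chromosome 7 that holds AP1S1 and MIR4653. MIR4653 had few reads and lies within AP1S1, so the last run is not 3 separate genes, and MIR4653 was not called without JQ1 replicate 3 (log2 change -0.75, limma adjusted p = 0.196). HOXC13, HOXC10, SEMA3B and KRT23 were below 1 RPKM in every JQ1 library. They passed the level filter only through the DMSO libraries and had to be lower with JQ1. Strand was not stated, so reads of neighbours that overlap cannot be told apart, and the runs are a description. Neighbours were taken from the RefSeq gene order of GRCh38.p14 among 12092 placed genes.

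Most of the large changes of HCT 116 did not reach 2-fold in every line, although many had the same direction there. Of the 215 genes that rose by at least 2-fold, 43 did so in none of the other 5 lines and 28 in all 5. Of the 466 that fell by at least 2-fold, 116 did so in none of the others and 30 in all 5. Regardless of size, 134 of the genes that rose and 246 of those that fell changed with the same sign in all 5 other lines. Their median log2 changes, averaged over the other lines, were 0.90 and -0.70. The same counts over all tested genes were not taken, so these numbers are a description. The genes were picked for a 2-fold change in HCT 116, which favours larger changes there than in the other lines. The size of the JQ1 effect in HCT 116 was tested against the mean effect of the other 5 lines in the same limma fit. At a difference of at least 1 on the log2 scale, 62 genes had a higher effect in HCT 116 (0.494% of those tested) and 178 a lower one (1.42%). The genes were selected on their level in HCT 116, and some were under 1 RPKM in other lines. The part of those low levels in the differences was not tested.

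MT2A had the largest positive difference, 2.20 ± 0.054 (SE). Its log2 change was 2.52 in HCT 116, against 1.95 in HCT-15, 0.65 in SW480, 0.60 in HT-29, -0.25 in COLO320 and -1.34 in COLO205, at 51.8 to 590 RPKM with DMSO in those lines. DHRS2 followed with a difference of 2.15 ± 0.14, yet SW480 changed by 3.90, slightly more than HCT 116 at 3.79. TNFRSF6B, the decoy receptor for FAS ligand, rose by 1.38 in HCT 116 and changed by -1.13 to 0.19 in the others. SQOR, which oxidizes hydrogen sulfide, had a difference of 1.51. It changed by -3.39 in COLO320, and the difference was 0.79 without that line.

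DDIT4 had a difference of -2.10 and was expressed in all lines, at 8.15 to 34.0 RPKM with DMSO in the other 5. It averaged 19.7 ± 1.35 RPKM with JQ1 and 70.0 ± 15.4 RPKM with DMSO in HCT 116, whereas SW480 had 48.2 and 15.7 RPKM and HCT-15 had 62.0 and 34.0 RPKM. KRT7 had a difference of -3.19, but it also fell in the 4 other lines that expressed it, from levels of at most 2.42 RPKM with DMSO. KRT15 changed by -1.52 in HCT 116 and by 2.35, 1.25 and 0.64 in HCT-15, HT-29 and COLO205. PCDH7, SCG2 and ARL14EPL were under 1 RPKM with DMSO in all 5 other lines. PCDH7 nevertheless had 952 reads with JQ1 and 808 with DMSO in COLO320 and 603 and 538 in HCT-15, where its log2 changes were 0.22 and 0.12.

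**Figure D5:**
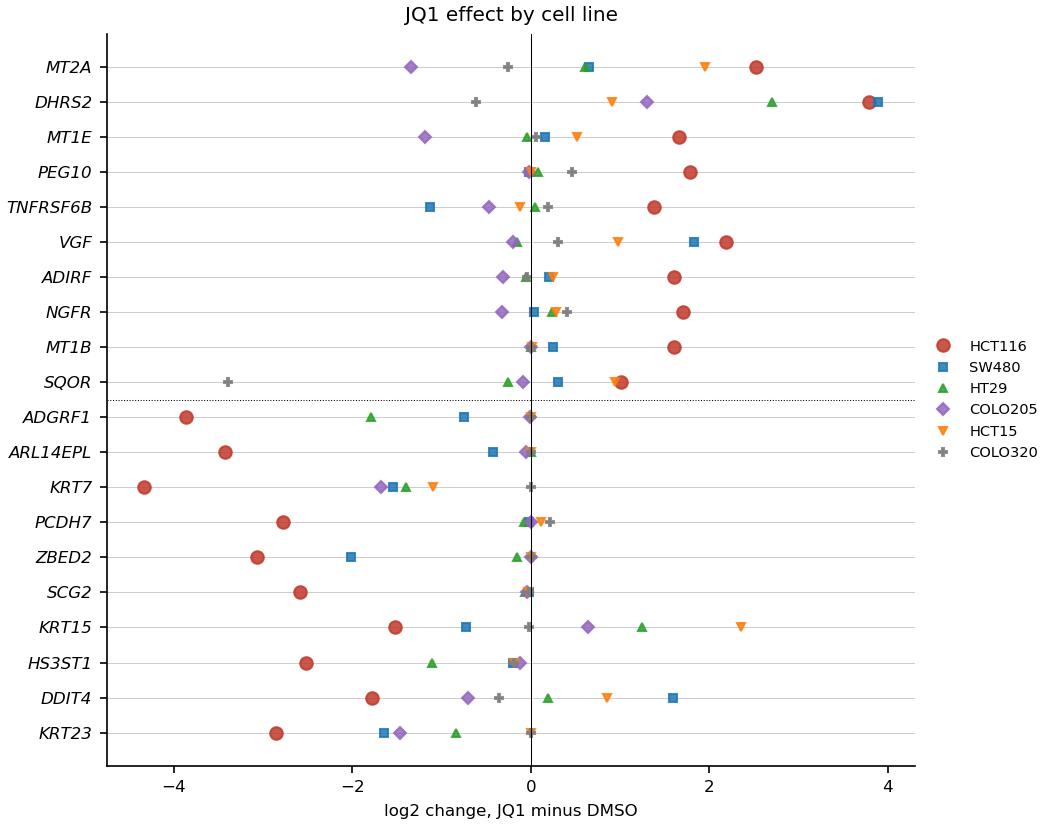
Log2 change (JQ1 minus DMSO) in each of the 6 lines for the 10 genes with the largest positive (above the dotted line) and the 10 with the largest negative difference between HCT 116 (large red circles) and the mean of the other 5 lines. For DDIT4, HCT 116 is at -1.78 while SW480 is at 1.59. For SCG2 and PCDH7 the other lines sit near 0, between -0.073 and 0.22.

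Gene groups that fell in HCT 116 also differed in degree from the other lines. For the 44 G1 and S phase genes the median log2 change was -0.12 in HCT 116 and -0.62 for the mean of the other lines, and the effect was higher in HCT 116 for 42 and lower for 1. That compares with 32.3% of all tested genes higher and 30.1% lower. For cholesterol synthesis the median was -0.37 in HCT 116 and -0.13 in the others, with 3 genes higher and 13 lower in HCT 116. Of 16 tested histones the effect was higher in HCT 116 for 6 and lower for 8. The replication-dependent H2BC4, H3C10 and H2BC21 had differences of -2.33, -2.35 and -2.26.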

How the data were processed

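RNA was extracted on columns with a DNase step and made into libraries with a TruSeq RNA kit, per the labels' protocols. RPKM values per gene were computed by the authors and deposited as a single table, with GSNAP, DESeq and limma named in the submitters' processing notes without versions or roles. Those notes give the build NCBIM37, a mouse assembly name, although the gene identifiers are human, so the table carries no coordinates. Symbols, gene order and promoters came from RefSeq tables of GRCh38.p14, matched on the identifier, which named 12097 of the 12554 tested genes. Whether counting used strand was not stated, so a gene and its antisense partner cannot be told apart.

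Here limma 3.58.1 (R 4.3.3) was run on log2(RPKM + 0.5), with a mean for each of 12 groups over all 36 libraries (24 residual and 3.43 prior degrees of freedom, variance trend), two-sided, with Benjamini-Hochberg adjustment over all tested genes. The other lines therefore share in each SE. An exact permutation of 3 against 3 libraries cannot go below p = 0.1. Reads were recovered from the RPKM steps, whole within 0.01 read for 100% of 23499 genes above 0, and the depths are their sums. The divisor of every library was 25.5 M times its size factor. That factor is the median ratio of its reads to their geometric mean over the libraries. Each SE comes from the spread between libraries within all 12 groups, so it is not the spread of HCT 116 alone. MT1E had SDs of 8.36 and 3.05 RPKM at means of 878 and 278 RPKM in HCT 116. In COLO205 with DMSO it had 2.13 ± 1.10 RPKM, which widens its SE. A line without reads of a gene adds no spread, as HCT-15 and COLO320 for ARL14EPL, so such an SE and its p-value can be too small. The limit that depth sets on levels near 0 covers counting error only. Replicate pairs had a chi-square per gene of 1.32 to 3.20, above sampling noise, and none was merged. The fit was tested on simulated data. Tables and figures used Python 3.11.15, pandas 2.3.3, numpy 2.4.6 and matplotlib 3.10.9.

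Named genes were the 15 largest rises and falls above 5 RPKM with groups apart, the 10 largest differences from the other lines in each direction, the 10 most abundant 2-fold changes, runs of neighbours, and members of fixed gene groups. Some genes that these rules name are not reported here. The members and gene groups were chosen with earlier results of these data known. Alternatives were other pseudocounts, level filters, scalings, voom on the recovered reads, HCT 116 alone, a replicate block, and leaving out each library or each other line.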

Additional observations from a re-analysis of the deposited data

Results flagged for a closer look

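The JQ1 effect in HCT 116 differed from the mean effect of the other 5 lines in a test of the difference itself (limma, adjusted p under 0.05) for each gene below, and these are the 10 largest differences in each direction under the level rule. Positive differences on the log2 scale were 2.195 for MT2A, 2.152 for DHRS2, 1.758 for MT1E, 1.689 for PEG10, 1.674 for TNFRSF6B, 1.636 for VGF, 1.594 for ADIRF, 1.572 for NGFR, 1.552 for MT1B and 1.512 for SQOR. MT2A, TNFRSF6B and SQOR were above 1 RPKM with DMSO in all 5 other lines. PEG10 and NGFR were under 1 RPKM in 4 of them, and MT1B in all 5. NGFR, a neurotrophin receptor, averaged 379 RPKM with JQ1 and 370 RPKM with DMSO in SW480, against 11.3 and 3.15 RPKM in HCT 116, so its level in SW480 was far above that in HCT 116. ADIRF, a regulator of adipogenesis, averaged 180 ± 4.69 RPKM with JQ1 and 59.1 ± 2.04 RPKM with DMSO in HCT 116. It overlaps an antisense gene, and strand was not stated.

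Negative differences were -3.352 for ADGRF1, -3.33 for ARL14EPL, -3.194 for KRT7, -2.826 for PCDH7, -2.637 for ZBED2, -2.552 for SCG2, -2.223 for KRT15, -2.154 for HS3ST1, -2.099 for DDIT4 and -2.064 for KRT23. ARL14EPL, PCDH7 and SCG2 were under 1 RPKM with DMSO in all 5 other lines, and ADGRF1 and ZBED2 in 4. KRT23 reached 509 RPKM with DMSO in another line, against 5.04 RPKM in HCT 116. On recovered reads the difference was -3.31 for KRT23 and 0.98 for NGFR. In HCT 116, ADGRF1, ARL14EPL, ZBED2, SCG2 and KRT23 passed the level filter only through the DMSO libraries and had to be lower with JQ1. The part of low levels in the other lines was not tested.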

How the results depend on the processing

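The numbers of genes higher and lower were within 1.5 times those reported under every setting run. The 2-fold counts were 215 higher and 466 lower, and became 502 higher with quantile scaling and 251 lower with a filter at RPKM 5, which leaves 9201 genes. Genes with a higher effect in HCT 116 than in the other lines numbered 62, and 94 with a pseudocount of 0.1, 129 with no filter, 134 with the filter over the 36 libraries, 162 with quantile scaling and 154 with voom on recovered reads. Those with a lower effect numbered 178, and 95 with the filter at RPKM 5 and 308 with quantile scaling. Where more or fewer genes were tested, the counts cover other genes; otherwise the cause was not tested. Same-numbered libraries did not deviate together (r = 0.0255, 0.0484 and -0.019), which cannot settle whether the numbers pair the samples. With a replicate block 4641 genes were higher and 4858 lower. Dividing by total reads moved the median change to -0.029. Of 2797 values for 166 named genes under 17 settings, 2773 kept their direction and their side of the threshold, and 7 turned in direction. KRT19 turned to -0.044 and MKI67 to 0.014 with quantile scaling, and LSS to -0.0090 with total reads as divisor. Leaving out a library gave -0.38 to 0.15 for KRT5, -0.025 to 0.046 for LSS and -0.072 to 0.016 for MKI67, none of them called. The calls of BRD3 and MIR4653 were each lost under 4 or more settings. A listed value near 0 is limited by depth, since 3 reads of a gene of 1 kb are 0.105 to 0.150 RPKM in these libraries.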

Other observations

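Of all tested genes 37.4% rose and 39.1% fell, and the counts below stand beside these shares. Of 26 tested NRF2 and glutathione genes 16 rose (61.5%) and 6 fell (23.1%). The quinone reductase NQO1 was at 212 ± 6.34 RPKM with JQ1 and 115 ± 0.870 RPKM with DMSO, and the ferritin chains FTL and FTH1 rose by 0.67 and 0.61 on the log2 scale. ABCC2, an exporter of glutathione conjugates, fell to 1.46 ± 0.0295 RPKM with JQ1, against 9.51 ± 0.125 RPKM with DMSO. Of 36 glycolysis and hypoxia genes 22 rose and 10 fell, and the glucose transporters parted: SLC2A1 averaged 121 ± 2.01 RPKM with JQ1 and 61.8 ± 0.535 RPKM with DMSO, while SLC2A3 averaged 0.491 and 2.07 RPKM. Of 44 lysosome and autophagy genes 25 rose and 14 fell. The sialidase NEU1 averaged 24.6 ± 1.61 RPKM with JQ1 and 9.76 ± 0.445 RPKM with DMSO, and the autophagy conjugate ATG12 averaged 18.7 ± 0.826 and 49.9 ± 0.423 RPKM.

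Several immune and DNA repair groups had members that rose and members that fell, with shares that differed to varying degrees from those of all tested genes. Of 18 tested NF-kB targets 7 rose (38.9%) and 9 fell (50%), among them the protease PLAU at 6.63 ± 0.078 RPKM with JQ1 and 17.9 ± 0.765 RPKM with DMSO. Of 24 interferon-stimulated genes 12 rose (50%) and 10 fell (41.7%). Although IRF7 rose, OAS3, which senses double-stranded RNA, fell to 5.11 ± 0.157 RPKM with JQ1, against 12.3 ± 0.139 RPKM with DMSO. Of 26 homologous recombination and Fanconi anemia genes 6 rose (23.1%) and 13 fell (50%), with FANCD2 at 10.1 ± 0.148 RPKM with JQ1 and 17.8 ± 0.403 RPKM with DMSO. Of 11 mismatch repair genes 4 rose and 5 fell. Of 28 mesenchymal and adhesion genes 12 rose and 12 fell, the caveolin CAV1 to 87.0 ± 0.783 RPKM with JQ1, against 213 ± 2.90 RPKM with DMSO.

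The remaining groups had these counts of tested genes that rose and fell. Of 14 MYC network genes 3 rose and 8 fell, of 21 endoplasmic reticulum chaperones 10 and 11, and of 16 heat shock genes 4 and 9. Of 12 death receptor genes 4 rose and 4 fell, of 27 ERK and AP-1 genes 10 and 10, and of 32 receptor tyrosine kinases and ligands 14 and 14. Of 22 TGF-beta, BMP and ID genes 12 rose and 8 fell, and of 33 respiratory chain and mitochondrial translation genes 12 and 18. Of 17 cholesterol regulation genes 8 rose and 8 fell, and of 20 genes often used for normalization 16 rose and 3 fell, led by POLR2A.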
